A study of Mus musculus with 2 samples.

Results

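The regions described here are 1227 strong TCF12 binding regions of a mouse B-cell lymphoma line. They lie over 1 kb from the 5′ ends of protein-coding genes, though not of every transcript, and have no main E-box at the summit. They were chosen by measured values and by sequence. Of 23575 peaks on mm9, 23572 lay on chromosomes 1 to 19 and X, and 4716 of these had a peak signal of at least 100. Of those, 2921 had their summit more than 1 kb from the 5′ end of every protein-coding gene, and 2725 also lay outside protein-coding exons. The main E-boxes are the hexamers CANNTG with the centre GC, CC or GG, and 1498 of the 2725 strong distal peaks held one wholly within 50 bp of the summit. The other 1227, which are 45.0% of the strong distal peaks and 5.21% of the list, are the members. Their signal, distance limit and lack of a main E-box within 50 bp are therefore properties of the selection and not results.

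The study has 1 group of 2 biological replicates. Each is chromatin immunoprecipitation followed by sequencing (ChIP-seq), with an antibody against TCF12, of CH12.LX, an immortalised line from a B-cell lymphoma of the B10.H-2aH-4bp/Wts strain. The labels name no treatment and no second condition. The mm9 peak list joins the replicates, and the separate replicate lists are on mm10. Binding was measured and expression was not, so the cell type could not be checked by marker transcripts. A peak signal averages over all cells of a culture, so more cells with the factor bound and more binding per cell cannot be told apart. A single line also stands for 1 tumour and not for normal B cells.

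TCF12, also called HEB, is a basic helix-loop-helix protein of the E protein family. E proteins bind DNA as dimers, and each partner contacts one side of the E-box CANNTG. Distal regions of this kind are often enhancers, where several factors bind close together. In B cells these include the ETS factors PU.1 and SPIB, which bind composite sites with IRF4 or IRF8, the AP-1 dimer of BATF and JUN, which can also bind beside an IRF, and the factors RUNX, EBF1, OCT2 and NF-kappaB.

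The sequences at 5 of the strongest members show what stood within 50 bp of summits that lack a main E-box there. At these 5 a main E-box ended not far outside, 59 bp from the summit at Arid3a, 70 at Cyth1, 64 at Iglc2, 56 at Lphn2 and 55 at Dusp4. Each window is the mm9 plus strand from 50 bp before to 50 bp after the summit. Capitals mark the E-box CATCTG or its reverse complement CAGATG, the PU.1-IRF core GAANTGAAA, the ETS core GGAAGT, the AP-1 core TGANTCA, the RUNX core TGTGGT, the octamer ATGCAAAT and the EBF core CCCNNGGGA, each on either strand. Arid3a and Cyth1 were shown because they were the strongest with CATCTG and a PU.1-IRF core, Iglc2 because it has the fused PU.1-IRF site without CATCTG, and Lphn2 and Dusp4 because they were the strongest with an AP-1 core.
Arid3a (chr10:79403633-79403733): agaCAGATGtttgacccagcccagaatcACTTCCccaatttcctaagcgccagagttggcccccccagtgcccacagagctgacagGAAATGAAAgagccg
Cyth1 (chr11:118073169-118073269): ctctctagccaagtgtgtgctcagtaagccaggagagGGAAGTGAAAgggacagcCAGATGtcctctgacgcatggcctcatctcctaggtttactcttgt
Iglc2 (chr16:19179477-19179577): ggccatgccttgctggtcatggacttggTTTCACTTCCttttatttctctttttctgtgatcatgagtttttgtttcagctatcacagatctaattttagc
Lphn2 (chr3:148358596-148358696): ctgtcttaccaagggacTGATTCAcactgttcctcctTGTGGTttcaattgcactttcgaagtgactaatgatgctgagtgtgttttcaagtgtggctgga
Dusp4 (chr8:35734927-35735027): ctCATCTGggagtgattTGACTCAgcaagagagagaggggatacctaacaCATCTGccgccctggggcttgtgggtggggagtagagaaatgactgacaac

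A second set shows the remaining motif kinds. Meis1 has 2 copies of CATCTG, each after a base A, and a RUNX core. Gm900 has the octamer and Nuak1 has EBF cores beside CATCTG. The window near Gpr15 has an AP-1 core followed after 4 bases by GAAA, the arrangement of a BATF-IRF composite, and was chosen after its sequence was seen.
Meis1 (chr11:19246582-19246682): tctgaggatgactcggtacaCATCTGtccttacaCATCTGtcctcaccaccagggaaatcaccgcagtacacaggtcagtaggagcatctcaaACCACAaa
Gm900 (chr12:114483061-114483161): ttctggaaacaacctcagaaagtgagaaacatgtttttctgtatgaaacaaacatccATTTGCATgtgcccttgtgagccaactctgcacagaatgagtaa
Nuak1 (chr10:83574400-83574500): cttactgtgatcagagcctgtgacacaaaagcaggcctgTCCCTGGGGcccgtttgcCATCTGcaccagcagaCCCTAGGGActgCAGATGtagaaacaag
Gpr15 (chr16:58697058-58697158): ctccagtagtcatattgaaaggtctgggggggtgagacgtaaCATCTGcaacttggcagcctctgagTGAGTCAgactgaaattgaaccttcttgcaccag

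The last set shows such an outer E-box at 2 members with none of the motifs above. These windows reach further to one side, from 15 bp on one side of the summit to 85 bp on the other, and capitals mark main E-boxes. The nearest main E-box ended 77 bp from the summit at Rab37 and 60 bp at Rpl11.
Rab37 (chr11:114968059-114968159): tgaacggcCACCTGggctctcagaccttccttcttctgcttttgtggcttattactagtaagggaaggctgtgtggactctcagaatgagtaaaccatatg
Rpl11 (chr4:135645035-135645135): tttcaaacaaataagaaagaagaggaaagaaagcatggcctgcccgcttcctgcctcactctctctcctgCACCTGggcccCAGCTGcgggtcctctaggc

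The strongest members had very high signals in both replicates. The strongest lay in an intron of Arid3a, which encodes an AT-rich DNA-binding protein known from immunoglobulin heavy chain transcription. This peak (chr10:79403402-79403931) was 13.9 kb downstream of the gene's 5′ end and had an mm9 signal of 1582. Its mm10 counterpart had 264 in replicate 1 and 199 in replicate 2. The next, in an intron of Rab37, a small GTPase of secretory granules, had 1553 on mm9 (chr11:114967941-114968381), with 248 and 227 in the replicates. The third lay between genes, 294 kb from the 5′ end of Lphn2, an adhesion receptor (chr3:148358443-148358829). It had 1174 on mm9, with 260 and 200 in the replicates. In these 3 regions replicate 1 was the higher, as it was for most peaks.

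A peak in an intron of Cyth1, an exchange factor for ARF GTPases, had a signal of 902 (chr11:118073022-118073445), with 228 and 127 in the replicates. It lay 837 bp from the 5′ end of another coding transcript, so by transcripts it would count as a promoter region. A peak 20.9 kb from the 5′ end of Iglc2, a lambda light chain constant gene, had 829 (chr16:19179339-19179700), with 189 and 162. PU.1 and IRF4 are known for joint binding at lambda light chain enhancers, and this summit held the fused site on the line above. Further named regions among the 15 strongest were near Dusp4, a MAP kinase phosphatase, with 705, and near Tnfrsf13b, the TACI receptor for BAFF and APRIL, with 645. The peak near the homeobox gene Meis1 had 639, with 182 and 142 in the replicates. Of the 15 strongest, 6 lay inside a protein-coding gene, 8 held CATCTG within 50 bp and 11 had a main E-box ending 51 to 100 bp from the summit.

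The rest of the 15 strongest covered genes of many kinds. A peak between genes near 1700061I17Rik had 807, with 199 and 151 in the replicates, and held CATCTG. A peak in an intron of Zfpm1, the GATA cofactor FOG1, had 801, with 225 and 147, and held CATCTG. A peak nearest to 0610039K10Rik, in an intron of Serinc3, had 647, with 147 and 106. The peak near Rpl11 had 672, that near Gm900 641 and that near Nuak1, an AMPK-related kinase, 616. A peak in H3f3b, a histone H3.3 gene, had 623, with 156 and 111, and lay 221 bp from the 5′ end of another coding transcript.

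Below these, the strongest members for the other motifs also had a peak in each replicate. A peak in an intron of Pkig, a protein kinase inhibitor, held IRF and EBF cores and had a signal of 553, with 151 and 106 in the replicates. A peak near Fam46c held the octamer and had 566, with 157 and 135. For NF-kappaB the strongest were in Sept9, a septin, with 520, and in Phf15 with 382. For the longer RUNX core they were near Atp2a3, a calcium pump, with 498, and in Glipr1 with 386. For MEF2 they were near Bhlhe41, with 239, and in Msi2, an RNA-binding protein, with 230. For SP/KLF the second after Dusp4 was nearest to Slc45a1 with 334, and for PRDM1 they were near Lair1, an inhibitory receptor, with 285, and near Gm4968 with 194. In all of these replicate 1 was the higher.

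The distribution below these regions was steep. The median signal was 138.5, with quartiles of 113.6 and 188.7, and 955 members (77.8%) were under 200. Just inside the limit stood peaks nearest to Gm17623 at 100.07, Apoh at 100.1 and Ppp4r2 at 100.14. Just outside stood peaks nearest to Prdm9 at 99.953, Sla at 99.889 and Tmem154 at 99.852. The limit thus cuts a continuous range of signal.

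The distance limits of the rule were likewise within continuous ranges. The closest member summit was 1002 bp from a gene's 5′ end, and the nearest peak left out was at 937 bp.

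Replicate values could be read for nearly all members. A member was matched to the mm10 peak that lay at the same distance, within 50 bp, from the ends of at least 2 of the same genes. This paired 1216 of 1227 members (99.1%), while the same search with mirrored distances paired 1 (0.0815%). Of the 1216, 1215 had a peak in both replicate lists. The member nearest to Srebf2, a regulator of cholesterol synthesis, had an overlapping peak in the list of replicate 2 only, with 54.4. The mm10 peak from both replicates had 122.8 there, and why no replicate 1 peak overlapped it was not tested. Among the 1215, signal in replicate 1 ran from 22.9 to 264 with a median of 69.98, and in replicate 2 from 4.91 to 227 with a median of 44.3. Replicate 1 was higher at 1125 members (92.6%), with a median ratio of 1.55 and quartiles of 1.26 and 1.95.

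Over all 34817 mm10 peaks found in both replicates, the members included, the median ratio was 1.64, and replicate 1 was higher at 83.2%. How the signal is scaled to depth is not stated, so a part of the ratio in depth was not tested. Within both replicates the members ranked high: 1165 (95.9%) were among the 10000 strongest of the 300000 entries of each list. Both replicates entered the signal that chose the members, so high ranks follow from the selection and are not a result. Across the 1215 members, Spearman's rho between the replicates was 0.52, and these values share the matched peak and the selection by signal. Some members were uneven. The largest gap was near Rcc2, a regulator of chromosome condensation, with 136 in replicate 1 and 4.91 in replicate 2. The mm10 peak from both replicates had 168.8 there, and the part of peak matching in this gap was not tested. In the opposite direction the largest was a peak 107 kb upstream of Bhlhe40, with 25.5 and 55.6. These extremes were named after their values were seen.

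**Figure D1:**
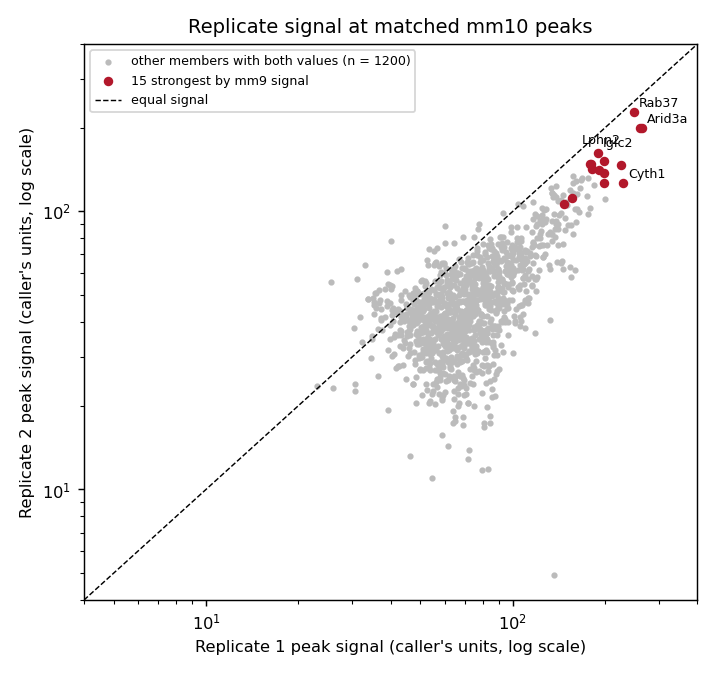
Peak signal of each matched member in replicate 1 (x axis) and replicate 2 (y axis), in the peak caller's units on log axes. The dashed line marks equal signal. Most points lie below it, with medians of 69.98 and 44.3, and the 15 strongest by mm9 signal stand at the upper right.

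The E-box with the centre TC, CATCTG, was the motif most often found at member summits. It stood within 50 bp of the summit in 262 members (21.4%, 95% Wilson interval 19.2 to 23.7), against 7.38% (6.41 to 8.48) of windows of the same length centred 300 bp to either side. Among all 23572 peaks 11.4% held it. The Wilson intervals here, and the Newcombe intervals for differences below, cover counting error only and treat neighbouring peaks as independent. The remaining 7 E-boxes were not above their flanks. CACGTG, the site of MYC and USF proteins, stood at 2.12% of summits and 1.59% of flanks. CAACTG stood at 5.70% and 4.89%, CACATG at 8.96% and 7.91%, CAAATG at 7.74% and 7.05%, and CATATG at 2.36% and 2.00%. CAAGTG and CAATTG were at or below flank level, with 6.28% against 6.76% and 0.570% against 0.896%.

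The base before CATCTG also differed from the flanks. In members an A stood before CATCTG, read 5′ to 3′ on the strand with that hexamer, at 142 of 304 sites (46.7%, 41.2 to 52.3). In the flanks it stood there at 45 of 190 sites (23.7%, 18.2 to 30.2). The weak distal peaks without a main E-box, with signal under 100, had A at 36.1% of their summit sites and the strong distal peaks with a main E-box at 36.2%. This context was examined after the counts of CATCTG had been seen.

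Sites of other factor families made up most of the remaining motifs. The PU.1-IRF core GAANTGAAA stood at 117 member summits (9.54%, 8.02 to 11.3), against 0.733% (0.464 to 1.16) of flank windows, a ratio of 13.0 and the largest among the 15 motifs above flank. In all peaks its share was 3.38%. The ETS core GGAAGT stood at 222 summits (18.1%, 16.0 to 20.3) against 6.36% of flanks, with 16.6% in all peaks. This core lies inside many PU.1-IRF sites, and 45 members held both. The repeat AAANNGAAA, bound by IRF proteins, stood at 120 (9.78%) against 5.38%.

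The AP-1 core TGANTCA stood at 197 member summits (16.1%, 14.1 to 18.2) and 2.89% (2.30 to 3.63) of flank windows, with 7.64% in all peaks. The RUNX core TGTGGT stood at 234 (19.1%, 17.0 to 21.4) against 8.64%, with 11.4% in all peaks. The octamer ATGCAAAT, the site of OCT1 and OCT2, stood at 51 (4.16%, 3.18 to 5.42) against 0.489%, with 2.25% in all peaks. The EBF core CCCNNGGGA stood at 76 (6.19%, 4.98 to 7.68) against 1.10% (0.757 to 1.60), with 4.4% in all peaks. The NF-kappaB core GGANNTTCC stood at 48 (3.91%, 2.96 to 5.15) against 0.774%, with 2.61% in all peaks. The set of all peaks includes promoter peaks. In strong distal peaks with a main E-box the octamer stood at 3.34%, the EBF core at 6.61% and the NF-kappaB core at 3.74%. For each of these cores the interval of the difference from members includes 0.

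Of 46 motifs searched, 15 had a summit interval above the flank interval and 1 had it below. The one below was the GATA core AGATAA, at 2.36% of summits and 5.54% of flanks. GATA factors act in erythroid and T cells. The low share was not particular to members. In strong distal peaks with a main E-box this core stood at 2.07% of summits and 5.54% of flanks. In weak distal peaks without one it stood at 2.64% against 5.18%, and in strong promoter peaks without one at 0.715% against 2.80%. Longer cores were also above, with AGGAAGTG for ETS (6.76% against 1.02%) and TGTGGTNA for RUNX (6.11% against 2.04%), as was the shorter octamer core TTTGCAT (7.91% against 1.79%). The others above were the MEF2 core TATTTNTAG (1.47% against 0.448%), the SP/KLF core GGGCGG (5.54% against 2.81%) and the PRDM1 core GAAAGTGAA (10 members, 0.815% against 0.0815%). In members none of the 6 control motifs, mostly cores with their letters reversed, was above or below its flanks. For the 4 controls found in at least 20 member flank windows, the ratio of summit to flank was 0.869 to 1.05. In strong distal peaks with a main E-box the reversed GATA core AATAGA was below its flanks (2.87% against 5.31%). The reversed AP-1 core ACTNAGT was below there too (1.67% against 3.47%).

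**Figure D2:**
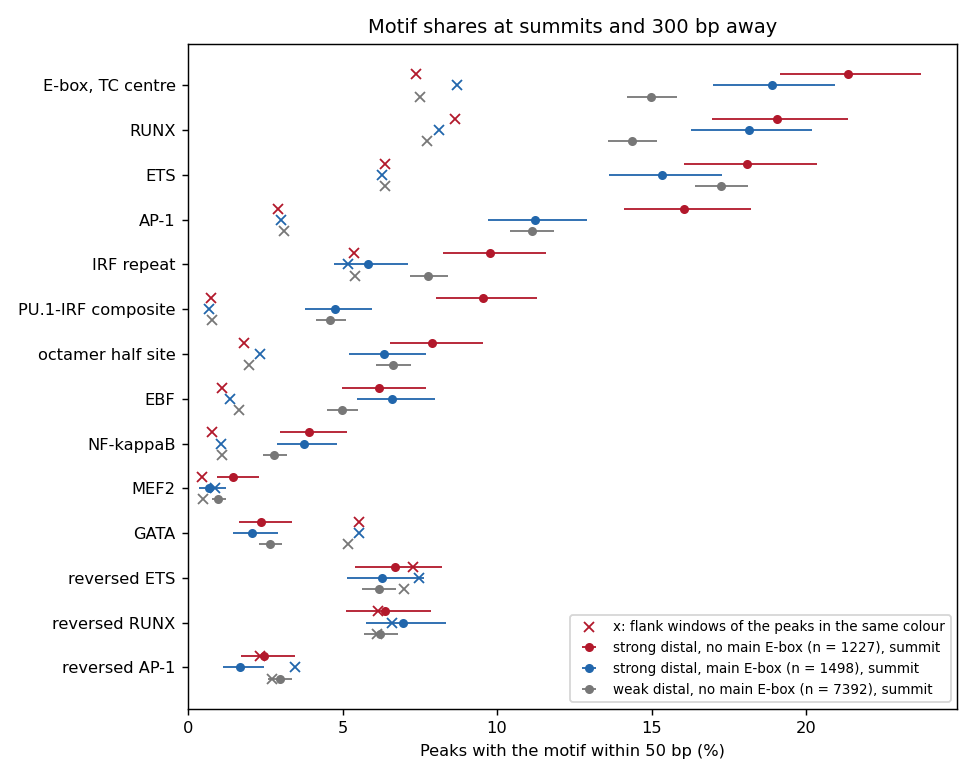
Share of peaks (x axis, %) with each motif (y axis) wholly within 50 bp of the summit, for members and the other distal sets. Circles with bars are summit shares with 95% Wilson intervals, and crosses are the flank windows of the same peaks. The member circle for the PU.1-IRF composite stands at 9.54%, against 4.74% in strong peaks with a main E-box.

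A count of all hexamers needs no list of factors. The rule had removed the main E-boxes from the member windows, so these could not rank high. Of 2080 hexamers, each counted with its reverse complement, CAGATG had the largest gap between member summits and flanks, with 21.4% against 7.38%. GAGTCA (18.3% against 5.95%) and GACTCA (17.2% against 4.97%), parts of the AP-1 core, came next. They were followed by CACTTC and ACTTCC, which are parts of the PU.1-IRF and ETS sites, and ACCACA, the RUNX core. Main E-boxes aside, the largest gaps the other way were at AT-rich hexamers. ATAAAA stood at 2.77% of summits and 9.82% of flanks, and ATTAAA at 2.04% and 8.48%. The part of base composition in these gaps was not tested.

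Most motifs were centred on the summit. In 20 bp bins, PU.1-IRF cores stood in 2.34% of members per bin over the 4 central bins, against 0.149% in the outer bins. AP-1 cores had 3.95% against 0.666%, and CATCTG had 5.13% against 1.78%. The NF-kappaB core had its highest bin off centre, with 1.22% at 70 bp before the summit and 0.876% in the central bins.

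**Figure D3:**
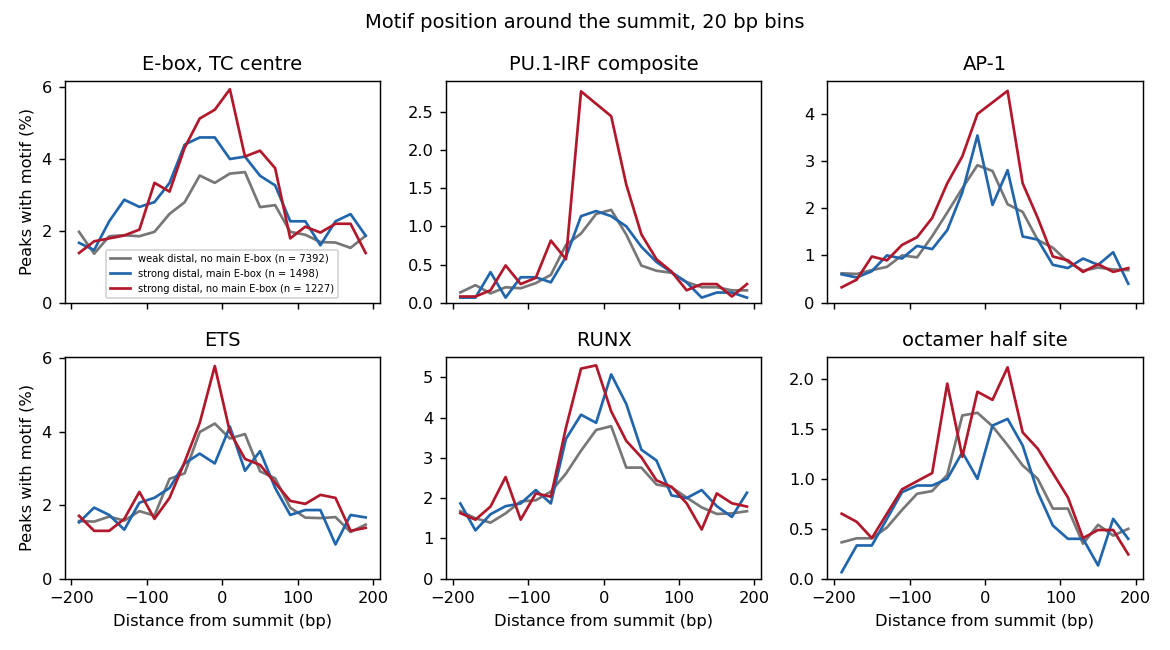
Share of peaks (y axis, %) with a motif in each 20 bp bin of distance from the summit (x axis, bp), in 6 panels, one per motif. Lines are members, strong distal peaks with a main E-box and weak distal peaks without one. In members the PU.1-IRF line peaks at 2.77% and the AP-1 line at 4.48%.

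Members were compared with the 1498 strong distal peaks that hold a main E-box. PU.1-IRF cores were more frequent in members by 4.80 percentage points (Newcombe interval 2.86 to 6.81), with 9.54% against 4.74%. AP-1 cores were more frequent by 4.84 points (2.26 to 7.47), with 16.1% against 11.2%. IRF repeats were more frequent by 3.97 points (1.96 to 6.06), with 9.78% against 5.81%. For CATCTG the difference was 2.46 points with an interval from -0.55 to 5.51, for ETS 2.74 points (-0.07 to 5.58) and for RUNX 0.913 points (-2.01 to 3.87). These intervals include 0 and also differences of several points. With a signal limit of 150 in both sets, the CATCTG difference was 7.14 points and the RUNX difference 4.28. With main E-box and motif counted within 100 bp, the RUNX difference was -1.11 points, so its direction depended on the window. In all, 9 of 46 intervals lay above 0 and none below. One of the 9 belonged to a control, the reversed GATA core AATAGA, at 1.45 points (0.0518 to 2.93). The rest were SP/KLF (2.07 points), MEF2 (0.799), CAAATG (2.20), the TCF/LEF core TCAAAG (2.28) and the RFX core GTTGCCAT (0.407). CAAATG, TCF/LEF, RFX and the control were not above their flanks in members. The median GC content of the summit window was 50.5% in members and 53.5% in the peaks with a main E-box, and the median signal was 138.5 and 162.2. Their part in these differences was not tested.

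Against the 7392 weak distal peaks without a main E-box, CATCTG was more frequent in members by 6.36 points (4.01 to 8.87), with 21.4% against 14.99%. PU.1-IRF was more frequent by 4.94 points (3.34 to 6.77), AP-1 by 4.94 (2.85 to 7.20) and RUNX by 4.70 (2.45 to 7.13). For ETS the difference was 0.858 points (-1.38 to 3.26). Of the 46 intervals 7 lay above 0 and 1 below. The latter was AGGGGGCGC, a core of the boundary factor CTCF, found in 0.163% of members and 0.785% of weak peaks. The median peak width was 222 bp in members and 370 bp in the weak peaks, and the median signal was 138.5 and 44.0. The part of width and signal in these differences was not tested. At 1538 strong promoter peaks without a main E-box the order was different. There PU.1-IRF was at 1.17%, AP-1 at 1.04% and SP/KLF at 33.2%, with a median GC content of 65.3%.

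Single motifs were not shared by most members. Counting 9 motifs together (CATCTG, ETS, PU.1-IRF, IRF, AP-1, RUNX, the shorter octamer core TTTGCAT, EBF and NF-kappaB), 879 members (71.6%, 69.1 to 74.1) held at least 1, against 30.2% (28.4 to 32.0) of flank windows. Each of the 9 was already above flank in these same members, so this gap follows from their choice and is not a further result. In the peaks with a main E-box 63.6% held at least 1, and in the weak peaks 59.7%. Of the members 502 held 1 of the 9, 273 held 2, 91 held 3 and 13 held 4. CATCTG and PU.1-IRF stood together at 35 members, which is 13.4% of those with CATCTG and 29.9% of those with PU.1-IRF. CATCTG and RUNX stood together at 59, which is 22.5% of those with CATCTG, beside 19.1% with RUNX over all members. PU.1-IRF and AP-1 stood together at 11, which is 9.40% of those with PU.1-IRF, beside 16.1% with AP-1 over all members. Differences between such shares were not tested. None of the 15 motifs above flank stood at 311 members (25.3%). No such share is given for flank windows or other peaks, so it cannot be called high or low. The strongest of the 311 were the peaks in Rab37, near Rpl11, a ribosomal protein gene, and in Adrbk1, a receptor kinase gene. The last had a signal of 488.

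A minority of the AP-1 cores of members stood at certain distances from GAAA or TTTC, the core of an IRF site. BATF-JUN-IRF composites are known in a form with GAAA directly before the AP-1 core and a form with TTTC 4 bp before it. TTTC stood 4 bp before TGANTCA in 18 of the 197 members with an AP-1 core (9.14%), and the median of the other gaps up to 20 bp was 3 members. GAAA stood directly before the core in 14 (7.11%) and 3 bp before it in 10 (5.08%), with a median of 4 for the other gaps. One of the composite forms stood at 32 members (16.2% of the 197), and none had both. In weak distal peaks with an AP-1 core the same 3 spacings were at 5.84%, 3.77% and 4.50%. In the 168 strong distal peaks with a main E-box and an AP-1 core they were at 4.76%, 5.95% and 1.19%. In the 71 member flank windows with an AP-1 core they were at 0%, 4.23% and 1.41%. Differences between the sets were not tested, and the spacing was examined after the AP-1 counts had been seen.

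**Figure D4:**
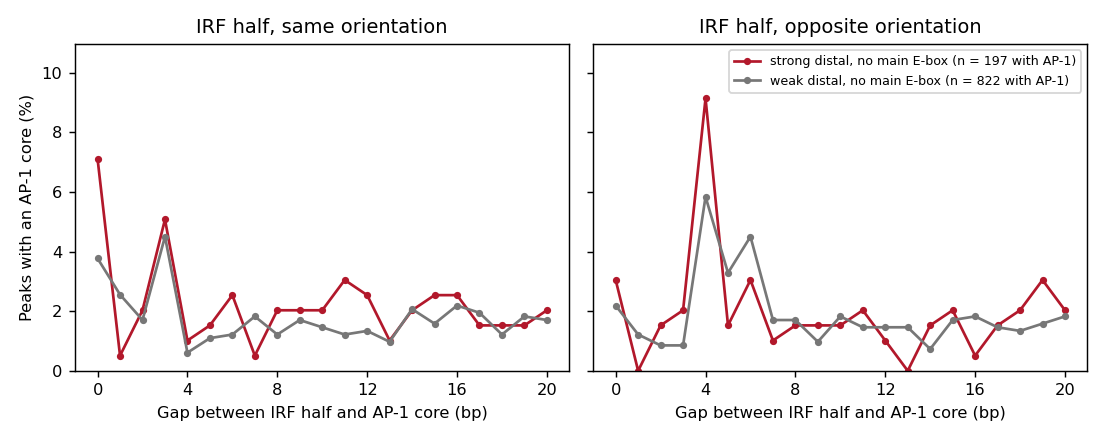
Share of peaks with an AP-1 core (y axis, %) that have an IRF core at each gap (x axis, bp), in the same (left) or opposite (right) orientation. Members are in red and weak distal peaks without a main E-box in grey. The highest member points are 9.14% at a gap of 4 bp on the right and 7.11% at 0 bp on the left.

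Signal and motif content varied together for CATCTG. The members were divided into 3 bands of 409, at signals of 121.1 and 166.9. CATCTG stood in 13.7% (10.7 to 17.4) of the lowest band, 22.5% (18.7 to 26.8) of the middle and 27.9% (23.7 to 32.4) of the highest. RUNX stood at 15.4%, 18.8% and 23.0% and PU.1-IRF at 7.58%, 9.29% and 11.7%, with overlapping intervals between neighbouring bands. AP-1 stood at 15.4%, 17.1% and 15.6%. The bands were set after the signals by motif had been seen. Members with CATCTG had medians of 77.5 in replicate 1 and 48.8 in replicate 2, against 68.5 and 42.9 for members without it. The order was thus the same in each replicate, but both replicates entered the signal that chose and banded the members. The replicate medians are therefore not independent of the bands. For AP-1 the medians were 71.5 and 44.2 with the core and 69.8 and 44.3 without.

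Many members had a main E-box just beyond the 50 bp limit. In 292 (23.8%, 21.5 to 26.3) a main E-box had its far end 51 to 75 bp from the summit, and in the next 25 bp bin the share was 14.8%. From there it fell to 6.11% at 151 to 175 bp and was 6.28% at 276 to 300 bp. Weak distal peaks without a main E-box had 13.1% at 51 to 75 bp and 9.88% in the next bin. In strong distal peaks with a main E-box, a further one stood at 51 to 75 bp in 20.6% (18.7 to 22.8) and in the next bin in 12.6% (11.0 to 14.3). These intervals overlap those of the members. Up to 100 bp, 427 members (34.8%) and 21.7% of weak peaks had a main E-box, a difference of 13.1 points (10.4 to 16.0). Over all 2725 strong distal peaks the share with a main E-box centre per 10 bp bin fell gradually from 8.95% at the summit to 6.42% around 45 bp before it and 5.39% around 55 bp. There was no step at 50 bp, so the limit divides a continuous range of positions.

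**Figure D5:**
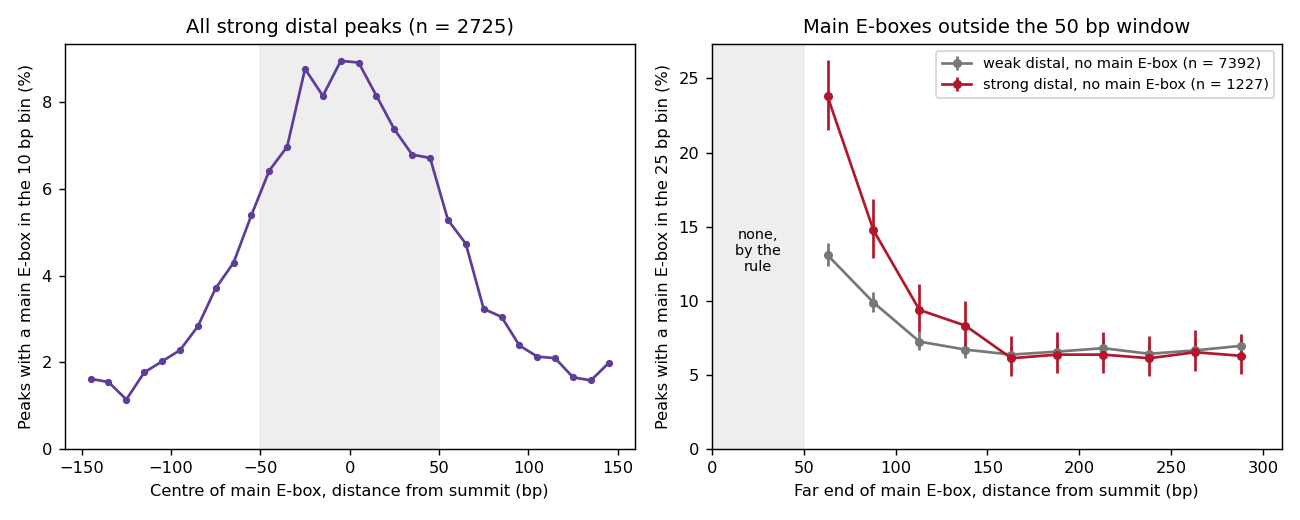
Left, share of all strong distal peaks (y axis, %) with a main E-box centre in each 10 bp bin of distance from the summit (x axis, bp). Right, share of members and of weak distal peaks with a main E-box whose far end falls in each 25 bp bin, with 95% Wilson intervals. The member point at 51 to 75 bp is 23.8%, against 13.1% in weak peaks, and the last points are 6.28% and 6.95%.

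The other motifs stood at members with and without such an outer E-box. No main E-box lay within 200 bp at 600 members. Of these 21.5% (18.4 to 24.96) held CATCTG, 9.17% (7.11 to 11.7) PU.1-IRF and 17.7% (14.8 to 20.9) AP-1. Of the 427 with a main E-box ending 51 to 100 bp away, 21.1% (17.5 to 25.2) held CATCTG, 9.60% (7.16 to 12.8) PU.1-IRF and 14.99% (11.9 to 18.7) AP-1. Median signal was 154 in the 427 and 133 in the 600. This split was made after the positions of the outer E-boxes had been seen.

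Members lay both in genes and between them. Introns of protein-coding genes held 575 (46.9%, 44.1 to 49.7), and so did 719 of the 1498 strong distal peaks with a main E-box. By distance, 316 (25.8%) were 1 to 10 kb from the nearest protein-coding 5′ end, 733 (59.7%) 10 to 100 kb and 178 (14.5%) further. The median was 24.0 kb. Upstream of the nearest 5′ end lay 525 (42.8%). A 5′ end of any annotated transcript, non-coding ones included, lay within 1 kb of 132 members (10.8%, 9.15 to 12.6), against 5.47% (4.43 to 6.74) of the peaks with a main E-box and 9.71% (9.06 to 10.4) of the weak distal peaks without one. For 60 of the 132 that transcript belonged to a gene that is not protein-coding. By motif, among the 9 counted together above, the intron share was lowest with an EBF core, at 35.5% (25.7 to 46.7). It was 38.3% (30.1 to 47.3) with IRF and 40.6% (34.0 to 47.6) with AP-1. The highest were NF-kappaB at 56.25% (42.3 to 69.3) and PU.1-IRF at 52.1% (43.2 to 61.0). Each of these intervals overlaps that of all members.

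Most members had neighbours. Within 12 kb, 981 (79.95%, 77.6 to 82.1) had at least 1 other TCF12 peak, against 74.6% (72.4 to 76.8) of strong distal peaks with a main E-box and 65.4% (64.3 to 66.4) of the weak peaks. Linked at 12 kb, 256 members formed 120 groups, and the largest had 4. One of 4 lay within 4.06 kb at Tex14, a germ cell gene, with signals of 242.2, 150.1, 237.5 and 124.1. The other lay near Ddc, the aromatic amino acid decarboxylase gene, with signals from 100.3 to 147.8. A group of 3 near Tnfrsf13b had 644.6, 117.2 and 277.7, and one near Meis1 had 324.1, 314.8 and 639.5. Chromosome 11 held 204 members, 7.70% of its peaks, chromosome 16 had 7.64% and chromosome X 1.08%, beside 5.21% over all chromosomes. The DNA copy number of the line was not measured here, and its part was not tested.

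Genes known from B cells often had a member between 10 kb upstream of their 5′ end and their 3′ end. Of all 22208 protein-coding genes 626 had one, which is 2.82%. On a list of 37 genes for B cell identity and signalling through the receptor, 17 had one (45.9%, 31.0 to 61.6), and 11 had a strong distal peak with a main E-box. They included Pax5, the B lineage commitment factor, with 2 members of up to 492, Ikzf3, the lymphoid factor Aiolos, with 4 of up to 337, and Blnk, the adaptor of the B cell receptor, with 262. Cd22, an inhibitory co-receptor, had 2 of up to 244, and Tnfrsf13b had 2 of up to 278 in its window. Among 30 genes of B cells after activation or in the germinal centre, 8 had a member (26.7%), led by Nfkb1 with 357 and Rel with 220, both NF-kappaB subunits. Of 13 genes of B-1 cells, the lineage of innate-like B cells, 5 had one, led by Arid3a and by Il10, an anti-inflammatory cytokine, with 427. The gene lists were chosen with earlier results of these data known, so their shares are a description and not independent support.

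Among 25 E proteins, their ID inhibitors and partners, 5 genes had a member. Runx1 had 204, Runx1t1 199, Runx3 143 and Ets1, a founding ETS factor, 128. Tcf4, the E protein E2-2 and a relative of TCF12, had 2 members of up to 171. No member lay in the windows of 14 plasma cell genes, 15 T cell genes, 12 myeloid genes, 10 erythroid genes or 12 genes of liver and neurons. A count of 0 among so few genes allows shares of up to 21.4%, 20%, 25%, 30% and 25%. The share over all protein-coding genes, 2.82%, lies within these limits, so the zeros do not set these lists apart. These zeros depended on the assignment of peaks to genes. By the gene with the nearest 5′ end, 28.6% of the plasma cell genes and 25% of the myeloid genes had a member. No share over all protein-coding genes is given for that assignment, so these values cannot be called high or low. A TCF12 peak of any kind lay in the windows of 36 of the 37 B cell genes and 29 of the 30 activated or germinal centre genes. It lay in those of 11 of the 14 plasma cell, 11 of the 13 B-1 and 20 of the 25 E protein and partner genes. The counts were 6 of 15 for T cells, 5 of 12 for myeloid cells, 3 of 10 for erythroid cells and 4 of 12 for liver and neurons. The share over all protein-coding genes is not given here, so no list can be called high or low. Longer genes offer a larger window. The median span was 15.5 kb over all protein-coding genes, 26.4 kb for the B cell list and 50.6 kb for the genes with a member, and the part of span in these shares was not tested.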

How the data were processed

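TCF12 ChIP-seq of 2 biological replicates of CH12.LX was analysed. The authors deposited peak lists whose column of signal values was used as it stands. The sources used here do not say how the authors scaled this signal or name the aligner and the peak caller, and depth is unknown. Per the deposited file descriptions, the mm9 list was made from both replicates, and control alignments entered the peak calls of each replicate on mm10.

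Summits were placed on NCBIM37 (mm9) with the GENCODE vM1 genes. Motifs were counted on both strands, wholly within 50 bp of the summit and in windows centred 300 bp away. Shares carry 95% Wilson intervals and differences Newcombe intervals. With 1 group there is no test between conditions, and peaks are not replicates. The motif search was tested on simulated sequences. Python 3.11.15, pandas 2.3.3 and statsmodels 0.14.6 were used. The printed bases are from the NCBIM37 genome.

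Members, gene lists and motifs were chosen with earlier results of these data known. Named regions are the 15 strongest members, the 3 on either side of the signal limit, the 2 strongest per motif above flank, the 3 strongest without one and the largest groups, and per gene list up to 5 genes. Regions named outside this rule, after their values were seen, are those near Srebf2, Rcc2 and Gpr15 and the distal one near Bhlhe40. Other signal, distance, window and matching limits were tried.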

Additional observations from a re-analysis of the deposited data

How the results depend on the processing

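Of 115 alternative values 99 stayed within the error or within 1.5 times of the reported value and 16 moved. The RUNX difference from the peaks with a main E-box, which did not exclude 0, changed sign to -1.11 points with windows of 100 bp. It was 4.28 points with a signal of at least 150, and the CATCTG difference was then 7.14. The number of members was 1859 with a signal of at least 80, 511 with at least 150 and 800 when no main E-box was allowed within 100 bp. With a signal of at least 150, CATCTG stood at 28.0% and PU.1-IRF at 11.5% of members. A main E-box lay within 150 bp of 45.2% of members and within 300 bp of 60.6%. The differences of PU.1-IRF and AP-1 shares from the peaks with a main E-box kept their direction under the alternatives tried. By the nearest 5′ end in place of the gene window, 28.6% of plasma cell genes and 25% of myeloid genes had a member. No share over all protein-coding genes is given for that assignment. No paired analysis was possible because the study has 1 group. The read depth behind each signal is not known, so no precision per peak can be given.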
